A study of Caenorhabditis elegans with 2 samples.

Results

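The regions described here are 1508 peaks of the worm transcription factor NFYA-1 whose summits lay inside introns, away from annotated gene starts. They were 1508 of the 6932 peaks kept by the authors after scoring irreproducible discovery rate (IDR), a procedure that retains regions ranked alike in replicate libraries. A peak was taken when its summit lay in a protein-coding gene body, in no exon of any protein-coding transcript, and outside the window from 500 bp upstream to 200 bp downstream of every protein-coding gene start. It was also required to have at most 1 CCAAT box, on either strand, within 50 bp of the summit. The positional conditions alone held for 1897 summits, of which 389 had 2 or more boxes and were set apart. The 1508 peaks, called the intronic peaks below, occupied 1502 distinct intervals in 946 host genes. Of them, 1504 lay in an intron of a coding transcript and 4 lay in a gene body without falling in any coding transcript's intron, and 13 lay in the bodies of more than 1 coding gene.

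The libraries were 2 biological replicates of 1 group, whole L3 hermaphrodites of Caenorhabditis elegans strain OP404. The strain carries the unc-119(tm4063) III mutation and the integrated transgene wgIs404, which expresses NFYA-1 with a C-terminal GFP and FLAG tag. Chromatin was sonicated and recovered with an anti-GFP antibody, so each peak reports the tagged protein in an extract in which all tissues are mixed, and the labels do not say which cells expressed the transgene. No untagged or other-stage library was analysed here, the read depth is not given in the sources used here, and no comparison between conditions was possible.

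NF-Y is a conserved complex of 3 subunits, NF-YA, NF-YB and NF-YC. NF-YB and NF-YC pair through histone-fold domains, and NF-YA contacts the CCAAT box in the minor groove. In mammals the box is best known from positions just upstream of transcription starts. Introns of worm genes are mostly short, but long introns, often early in a gene, can hold enhancers, internal promoters of shorter transcripts, and small noncoding genes with promoters of their own. Because the rule limited boxes, the low number of CCAAT boxes at these summits is set by the choice of peaks and is not a result.

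The sequences below show what lay under selected summits. Each is the reference sequence (WBcel235, the assembly of ce11) of the 50 bp on either side of the summit, read 5′ to 3′ on the strand of the host gene. Capitals mark the box as CCAAT or, on the other strand, as ATTGG. They also mark the repeat GAGAGA, which reads TCTCTC on the opposite strand. The remaining capitals mark AGACGC, read as GCGTCT on the opposite strand. The first peaks stand for the sequence classes described below: a box inside a longer site described further on, a GA repeat without a box, AGACGC without either, and a transfer RNA (tRNA) gene.
F35G12.5, chrIII:4584330-4584430, + strand: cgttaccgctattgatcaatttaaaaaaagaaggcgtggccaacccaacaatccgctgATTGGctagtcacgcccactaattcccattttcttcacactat
W06H8.6, chrV:6224618-6224718, - strand: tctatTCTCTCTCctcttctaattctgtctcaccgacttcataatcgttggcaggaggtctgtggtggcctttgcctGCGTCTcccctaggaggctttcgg
drap-1, chrV:9731145-9731245, + strand: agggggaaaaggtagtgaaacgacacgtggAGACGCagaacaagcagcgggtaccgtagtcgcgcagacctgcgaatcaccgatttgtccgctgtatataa
him-4, chrX:9743590-9743690, + strand: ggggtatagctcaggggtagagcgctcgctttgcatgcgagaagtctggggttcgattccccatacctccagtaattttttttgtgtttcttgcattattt
The other sequences come from the strongest peak in each of 3 homeobox genes, since hosts of this family had the lowest median rank number among the lists with more than 3 intronic peaks. The genes lin-39 and mab-5 encode Hox proteins of the midbody and the posterior body, and pal-1 encodes a Caudal-type protein. Each of the 3 windows held exactly 1 box, the most the rule allows.
lin-39, chrIII:7534871-7534971, - strand: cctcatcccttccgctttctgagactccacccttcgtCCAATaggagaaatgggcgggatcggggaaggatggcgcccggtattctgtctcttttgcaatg
pal-1, chrIII:4808225-4808325, - strand: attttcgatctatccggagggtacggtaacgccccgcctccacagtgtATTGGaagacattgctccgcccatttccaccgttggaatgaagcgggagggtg
mab-5, chrIII:7778654-7778754, - strand: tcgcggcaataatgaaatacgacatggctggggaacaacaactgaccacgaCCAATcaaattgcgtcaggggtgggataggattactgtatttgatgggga

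The strongest intronic peak was in the first intron of T26A8.4, 1132 bp from the annotated start. Its signal was 1034 in replicate 1 and 780 in replicate 2, and it ranked 21 of its list in both. The next was in the first intron of drap-1, whose mammalian counterpart is a subunit of the NC2 repressor of general transcription, with signals of 674 and 726. After it came the peak in unc-62, which encodes a Meis-type homeodomain protein, with signals of 762 and 517. The summits in T26A8.4, drap-1 and unc-62 each lay in the start window of an alternative coding transcript. That in drap-1 also lay in the same window of a noncoding gene start. The drap-1 peak was higher than the unc-62 peak in replicate 2 and lower in replicate 1, so their order rests on the pooled signal. Signal is the authors' own value per region, in a scale the files do not state, and ranks count from 1 for the strongest region.

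Among the 15 strongest peaks, ranks in the IDR list ran from 21 to 211, and the signal ran from 323 to 1034 in replicate 1 and from 235 to 780 in replicate 2. All 15 were among the 6932 strongest regions of each replicate, which their choice by pooled signal largely sets. Further hosts were lin-39, with signals of 550 and 429, sem-4, which encodes a spalt-type zinc finger protein, with 509 and 400, and pal-1, with 411 and 304. Others were the chromatin genes zfp-1, a counterpart of mammalian AF10, with 426 and 296, and let-526, an ARID-domain subunit of SWI/SNF remodelling complexes, with 380 and 270. The Mediator subunit gene mdt-26 had 485 and 394, and spop-1, named after the mammalian ubiquitin ligase adaptor SPOP, had 595 and 443. The remaining hosts, Y111B2A.12, Y65B4BL.7, ZK858.6, W06H8.6 and F35G12.5, have sequence names. Of the 15 peaks, 7 were in a first intron, 9 held 1 box, 4 held a GA repeat and 5 held AGACGC. The shares over all intronic peaks were 40.5%, 21.7%, 33.1% and 14.0%. The start window of an alternative coding transcript of an annotated gene held 8 of the 15, against 20.8% of all intronic peaks. Among the 8 were the peaks of T26A8.4, drap-1, unc-62, lin-39 and pal-1. These contrasts rest on 15 peaks and were smaller in a larger set. Of the 236 intronic peaks in the strongest 25% of the list, 25.8% (95% Wilson interval 20.7 to 31.8) lay in such a transcript start window. A single box was held by 24.6% (19.5 to 30.4) of them, and both intervals included the shares over all intronic peaks. On the X chromosome the strongest peak was in the last of 7 introns of mom-1, which encodes a Porcupine-type enzyme that lipid-modifies Wnt proteins, with signals of 349 and 269.

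As a group the intronic peaks were weak within the list. Their median rank was 4278.5, with quartiles at 2557 and 5702, against 3195.5 for the 5424 other IDR peaks. Those other peaks were taken with any number of boxes. Here and below, intergenic summits inside or outside a start window, and intronic summits inside one, were counted with at most 1 box. Intergenic summits inside a start window had a median rank of 2677 and intergenic summits outside the windows had 3890. The 125 intronic summits inside a window had 3663. Of the intronic peaks, 236, or 15.6% (95% Wilson interval 13.9 to 17.6), were in the strongest 25% of the list, against 27.6% of the other peaks. They made up 11.5% of the 693 strongest peaks and 31.1% of the 694 weakest. Peaks are not replicates, and the intervals above and below cover counting error only.

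**Figure D1:**
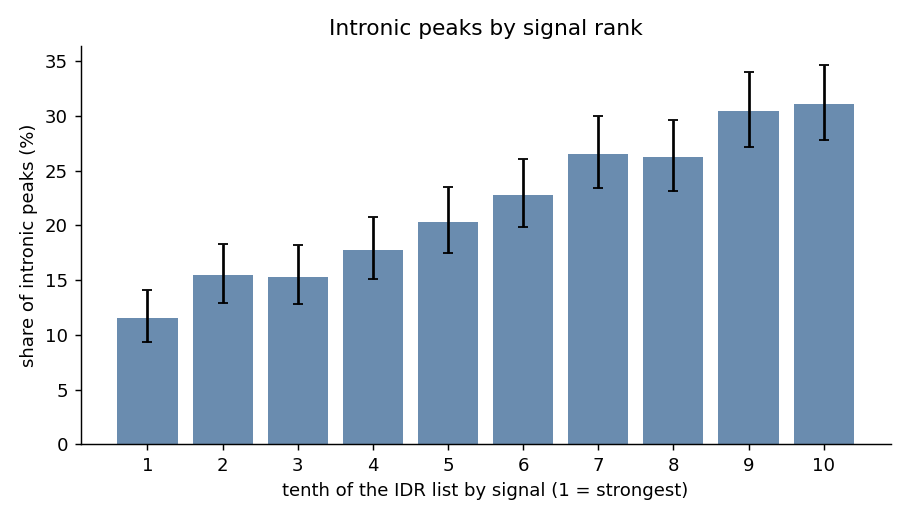
Share of each successive bin of 693 or 694 peaks of the IDR list, in order of pooled signal, that was made up of intronic peaks; bars give percent and whiskers the 95% Wilson interval. The share was 11.5% in the strongest bin and 31.1% in the weakest.

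Both replicates held most intronic peaks. In replicate 1, 1496 of them overlapped a region of its relaxed list by at least 1 bp, and in replicate 2, 1499 did. IDR scoring had already kept peaks for their agreement between replicates. These counts are therefore largely set by the choice of peaks and are not a result. Signals ran from 10.2 to 1034 with a median of 56.7 in replicate 1, and from 4.66 to 780 with a median of 41.8 in replicate 2. Across the 1487 peaks with a region in both lists, the Spearman correlation of the signals was 0.728, a description over regions that share the same libraries. Being among the 6932 strongest regions of both replicates held for 1139 intronic peaks, or 75.5% (73.3 to 77.6), against 81.5% of all IDR peaks. The share followed the rank, which comes from the pooled signal and so is not independent of the replicates. It was 99.6% in the strongest 25% of the list, where other IDR peaks had 99.7%, and 38.1% (34.1 to 42.4) in the weakest 25%. Other IDR peaks of those weakest ranks had 35.5% (32.8 to 38.2), so at that level of signal the intervals overlapped. In the relaxed list of 30000 regions called on both replicates together, 9686 regions met the rule and 15.6% (14.9 to 16.3) of them were IDR peaks. The share was 23.1% of all regions and 9.63% of those with a summit in an exon of a coding transcript, both with any number of boxes. It was 43.7% of regions inside a start window with at most 1 box. Of intergenic regions outside the windows, with the same box limit, 20.9% (20.1 to 21.7) were IDR peaks.

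**Figure D2:**
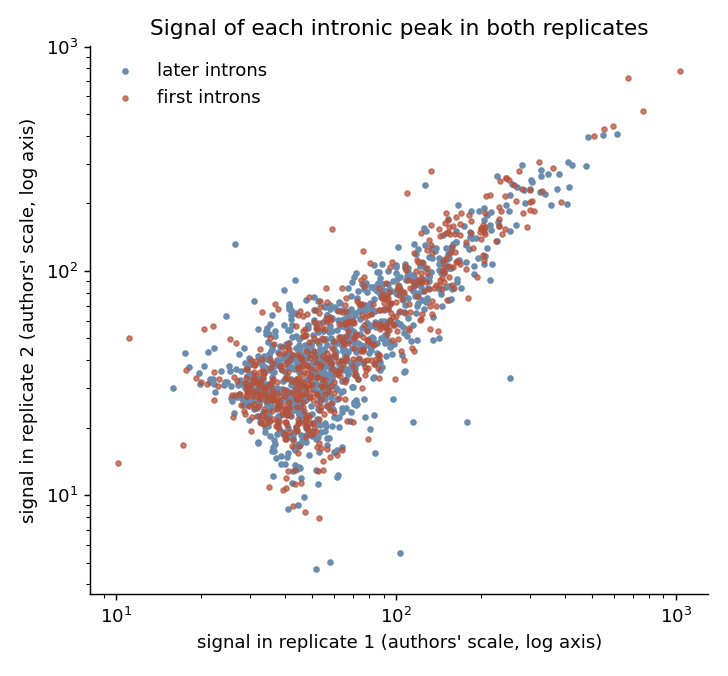
Signal of each intronic peak in replicate 1 (x) and replicate 2 (y), both on log axes in the authors' scale; each point is 1 of the 1487 peaks with a region in both lists, coloured by intron order. First and later introns overlap over the whole range, and points spread more widely at low signal.

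Peaks lay close to each limit of the rule. At the start window, the nearest peaks inside were those in cal-4, which lay 502 bp upstream of the start of C02F4.5 at rank 4772, and in nhr-88, which lay 202 bp downstream of its own start at rank 3598. The nearest peaks left out were in unk-1, 489 bp upstream of C34D10.5 at rank 2227, and in nstp-10, 197 bp downstream of its start at rank 5275. At the box limit, the strongest peak kept was that of T26A8.4 with 1 box, and the strongest left out was in the last intron of ced-7, an ABC transporter gene of cell corpse engulfment, with 2 boxes, rank 12 and signals of 1585 and 1237. Along the number of boxes the median rank went from 4371 for the 1181 peaks with none and 4059 for the 327 with 1 to 2158 for the 255 left-out peaks with 2 and 993 for the 134 with 3 or more. Of the 389 left-out peaks, 74.8% shared a 20-bp sequence near the summit with another IDR peak, against 27.9% (25.7 to 30.2) of the intronic peaks and 25.8% (24.6 to 27.0) of the remaining 5035 IDR peaks.

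Among windows with exactly 1 box, an extended form of the box was more frequent at the summits than beside them. The share of summits with a box, 21.7% (19.7 to 23.8), is itself limited by the rule. The longer site CCAATCA was found at 68 of the 327 summits with 1 box, or 20.8% (16.7 to 25.5). In windows with 1 box at 300 bp it was found in 18 of 267, or 6.74% (4.31 to 10.4), on the side of higher coordinates and in 12 of 276, or 4.35% (2.50 to 7.44), on the other. The 68 peaks had a median rank of 3800, and 92.6% (83.9 to 96.8) were among the strongest regions of both replicates, against 75.5% of all intronic peaks. The F35G12.5 sequence above is one of them. A GA repeat was present at 13.2% (7.12 to 23.3) of the 68. Of the 68, 44.1% shared a 20-bp sequence with another IDR peak, against 27.9% of all intronic peaks. CCAATCA was found at 4.51% (3.57 to 5.68) of all intronic summits and at 3.34% (2.64 to 4.21) of intergenic summits outside the start windows.

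A GA repeat was the most frequent of the short sequences counted. Of all 2080 6-mers, counted on both strands, GAGAGA had the largest difference between summit and flank windows, and CCAATC, limited by the rule, stood at 119 in that order. GAGAGA lay within 50 bp of 499 summits, or 33.1% (30.8 to 35.5), against 5.87% of windows 300 bp away and 28.4% of all IDR peaks. All IDR peaks include those with 2 or more boxes, and 6.94% of the 389 left-out intronic peaks held the repeat. Without the box limit the intronic share was 27.7% (25.8 to 29.8), which is not above that of all IDR peaks. GAGAGA lay within 25 bp of 18.9% and within 100 bp of 49.9% of intronic summits. It was found at 35.8% (33.7 to 37.9) of intergenic summits outside the start windows and at 24.6% (22.9 to 26.5) of intergenic summits inside them. The intronic share was thus near that of distal intergenic peaks and above that of peaks at gene starts. The intronic share was 40.3% (34.2 to 46.6) in the strongest 25% of the list, 31.8% (26.9 to 37.1) and 38.2% (33.7 to 42.9) in the next bins of that size, and 26.6% (23.0 to 30.5) in the weakest, so it did not fall steadily. Other IDR peaks, which had no limit on boxes, had 27.0% (24.8 to 29.3) in the strongest 25% and 24.8% (22.4 to 27.3) in the weakest. Peaks with the repeat had a median rank of 4116 and those without it 4416. On the host's sense strand the purine run was found alone in 169 of the 499 peaks, on the antisense strand alone in 294 and on both in 36. The sense share of the single-strand peaks was 36.5% (32.2 to 41.0), that of flank windows was 45.9% (38.6 to 53.4), and 42.7% of all GAGAGA occurrences in eligible introns were on the sense strand.

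Other short sequences also stood apart from the flanks. AGACGC was found at 14.0% (12.3 to 15.8) of intronic summits and 2.29% of flank windows, but also at 15.2% of other IDR peaks and 16.6% of intergenic summits outside the start windows. The sequence ACGCAG, which can overlap it, was found at 12.9% of intronic summits, 2.16% of flank windows and 18.1% of intergenic summits inside start windows. The E-box CACGTG, bound by basic helix-loop-helix proteins, was found at 4.77% (3.81 to 5.97) of summits and 1.62% of flank windows, and GCGCGC at 4.71% (3.75 to 5.90) of intronic summits against 10.1% (8.85 to 11.4) of intergenic summits inside start windows. AT-rich sequence was less frequent at summits. AAAATT was found at 12.7% of summits and 41.4% of flank windows, and GATAA, the core bound by GATA factors, at 15.3% and 21.2%. Intergenic summits outside the start windows were similar, with CACGTG at 4.37%, AAAATT at 11.8% and GATAA at 15.3%. Base composition moved with these values, with a GC content of 46.5% in the summit windows, 35.6% and 36.4% in the flanks and 32.1% over eligible intron sequence, and its part in them was not tested. The summit windows of other IDR peaks also had a GC content of 46.5%. A match is a description of the letters and not of a bound protein.

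**Figure D3:**
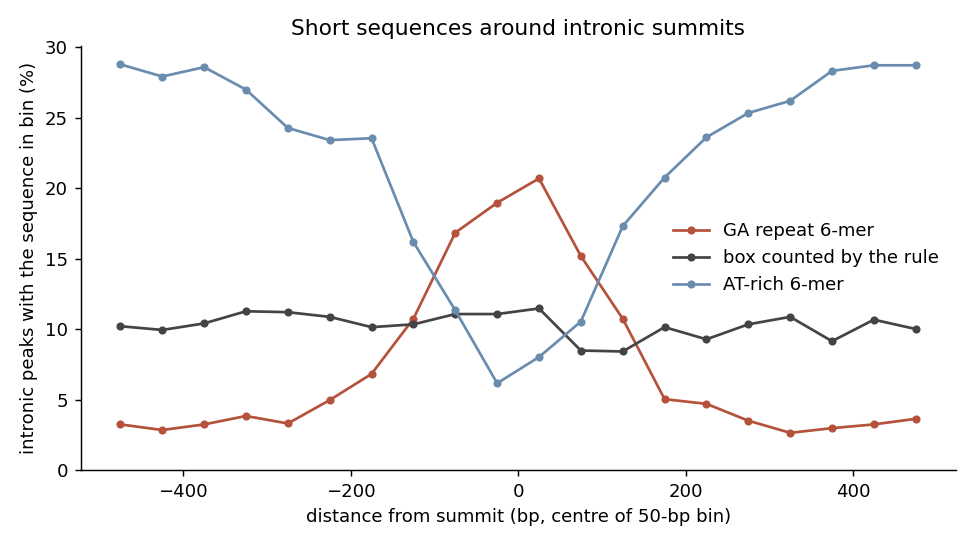
Percent of the 1508 intronic peaks with a sequence, on either strand, in 50-bp bins by distance from the summit: GAGAGA (GA repeat), CCAAT (the box counted by the rule) and AAAATT (AT-rich). The GA repeat reached 20.7% in a bin beside the summit and was 3.25% at the lower edge, and the AT-rich sequence fell to 6.17%. The box, between 8.42% and 11.5%, is limited near the summit by the rule, so its course there is not a result.

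Intron order was compared with the sequence that could be hit. Eligible sequence, the intron bases that met the positional conditions, came to 31.9 Mb, with 47.3 intronic peaks per Mb. First introns held 609 peaks, or 40.5% (38.0 to 43.0), but 23.8% of eligible bases. That is 80.5 peaks per Mb (exact Poisson interval 74.3 to 87.2) in first introns, against 46.9 (41.2 to 53.3) in second introns, 36.1 (30.4 to 42.5) in the third and 31.8 (27.5 to 36.5) in introns 6 to 10. First-intron peaks had a median rank of 4275 and later-intron peaks 4272, but the strongest 25% of the list held 115 first-intron peaks, or 18.9% (16.0 to 22.2), and 121 later ones, or 13.5% (11.4 to 15.9). The lower quartiles of rank were 2341 and 2709.5. A GA repeat was found at 34.5% (30.8 to 38.3) of first-intron and 32.1% (29.1 to 35.2) of later-intron peaks.

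Host introns were long. Their median length was 2744.5 bp (95% interval 2505 to 3048), with quartiles at 924 and 6164 bp, whereas a median eligible base lay in an intron of 959 bp. Per Mb of eligible sequence, introns of up to 250 bp held 11.6 peaks (8.67 to 15.1), those of 1001 to 2000 bp held 38.5 (33.7 to 43.8), those of 2001 to 5000 bp held 81.1 (73.5 to 89.3) and those above 10000 bp held 113 (96.9 to 132). First and later introns differed over part of this range. Between 1001 and 2000 bp, first introns held 69.0 peaks per Mb (55.4 to 85.0) and later introns 30.3 (25.6 to 35.7). Between 2001 and 5000 bp the values were 115 (99.6 to 133) and 64.4 (56.1 to 73.5). Between 5001 and 10000 bp they were 114 (96.3 to 135) and 97.4 (82.7 to 114), and above 10000 bp 113 (89.6 to 141) and 114 (91.1 to 141), so the intervals of first and later introns overlapped above 5000 bp. Peaks in introns above 5000 bp held a GA repeat at 38.1% (33.8 to 42.6), and those in introns of up to 1000 bp at 23.2% (19.3 to 27.6).

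**Figure D4:**
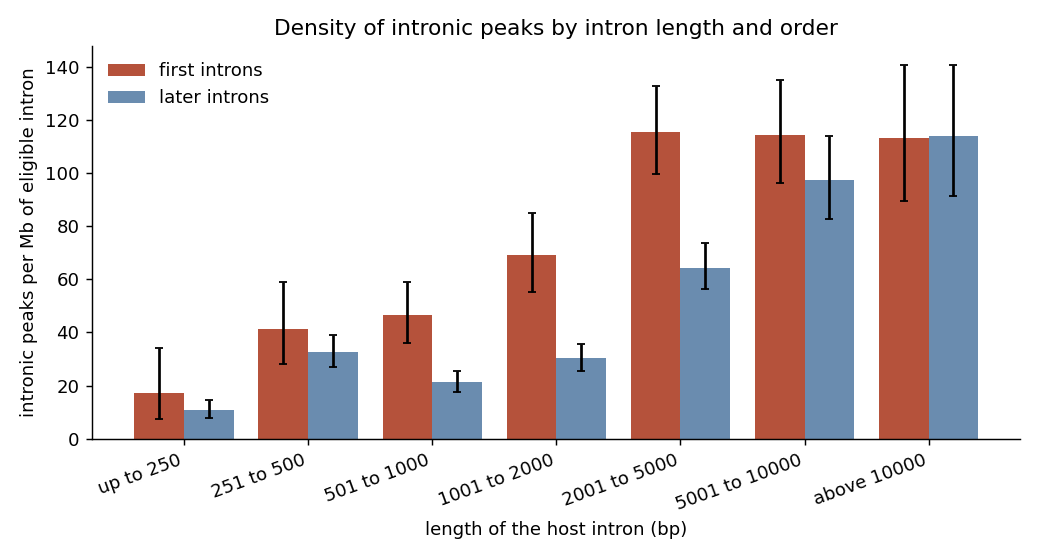
Intronic peaks per Mb of eligible intron sequence, by length of the host intron, for first introns and later introns; whiskers are exact 95% Poisson intervals. First introns were denser than later introns from 501 to 5000 bp, and both stood between 97.4 and 114 above 5000 bp.

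Few peaks lay near splice sites, and most lay far from the host's start. The median distance to the host's annotated start was 3341.5 bp, with quartiles at 1389 and 7148 bp and a maximum of 95159 bp. The nearest coding start of any gene was at a median of 2763 bp, and it was the host's own for 1123 peaks, or 74.5%. Within 50 bp of a splice site lay 48 peaks, or 3.19%, against 20.7% of eligible bases. This contrast was not split by intron length, and introns of up to 250 bp held 3.52% of peaks in 14.4% of eligible bases. A placement away from splice sites, apart from intron length, was not tested. Summits were nearer the 5′ than the 3′ end of their intron in 46.1% (43.6 to 48.6), against 49.8% of eligible bases.

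Annotated starts that the rule did not use were close to many of the peaks. The same window around the starts of all coding transcripts held 314 peaks, or 20.8% (18.8 to 22.9), in 6.57% of eligible bases, so these peaks sat beside starts of alternative transcripts. Of these, 56.4% were in a first intron. Windows around starts of noncoding genes, with piRNA genes left out, held 363 peaks, or 24.1% (22.0 to 26.3), in 5.78% of eligible bases. Such windows also held 27.2% (25.3 to 29.1) of intergenic summits outside the coding start windows and 18.8% of all IDR peaks. Closeness to noncoding starts was therefore not particular to the intronic peaks. The intronic share was 14.6% where summits in exons of noncoding transcripts were left out. Outside both kinds of window lay 883 peaks, or 58.6% (56.0 to 61.0), in 88.2% of eligible bases, at 31.4 per Mb (29.4 to 33.6).

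The largest annotated class was ncRNA, without a closer type, whose windows held 279 peaks, or 18.5% (16.6 to 20.5), in 4.67% of eligible bases, with a median rank of 4200. A peak can lie in windows of several classes. Named small RNA genes were a further part. The windows of tRNA genes held 109 peaks, or 7.23% (6.03 to 8.65), in 0.378% of eligible bases, and 54 summits lay inside a tRNA gene. Of those 54 peaks, 98.1% shared a 20-bp sequence with another IDR peak, and how reads that match several near-identical tRNA copies were placed is not stated, so its part in these peaks was not tested. Their median rank was 4772. The strongest of them, chosen after its values were seen, lay in intron 39 of 61 of him-4, which encodes the extracellular matrix protein hemicentin. It had a signal of 132 in replicate 2 and no overlapping region in the list of replicate 1. The next, in lelo-2, had signals of 131 and 94.3. Windows of small nucleolar RNA genes, whose products guide RNA modification, held 40 peaks, or 2.65% (1.95 to 3.59), in 0.246% of eligible bases. Of these, 5.00% shared a 20-bp sequence, and their median rank was 2185.5. Windows of microRNA genes held 19 peaks, or 1.26% (0.808 to 1.96), in 0.142% of eligible bases, with a median rank of 2367. The 12 peaks in windows of small nuclear RNA genes all shared a 20-bp sequence with another IDR peak. Windows of piRNA genes, which sit in clusters in the worm genome, held 35 peaks, or 2.32% (1.67 to 3.21), in 3.72% of eligible bases.

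The 946 hosts were 5.22% of the 18109 protein-coding genes with eligible intron sequence. One peak each was found in 666 of them, and 280 hosts with more than 1 peak held 842 peaks. Hosts had more sequence to hit, with a median of 4468 eligible bp against 755 bp over all these genes. The hosts with 8 or more peaks were lin-14, ppfr-1, daf-5, T28B11.1, daf-16, fkh-7 and ZK470.2, with eligible sequence between 10381 and 22545 bp. The last 3 had 8 peaks each.

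The gene with the most was lin-14, a nuclear protein gene of the heterochronic pathway that the lin-4 microRNA represses, with 14 peaks in 4 introns. Its strongest peak, in the third intron, of 11174 bp,, had rank 541 and signals of 255 and 151, and the one 1964 bp from the gene start had rank 769 and signals of 199 and 149. The weakest of the 14 had rank 6553 and signals of 44.5 and 16.9. The strongest peak and a neighbour at rank 6055 overlapped the same region of replicate 1, so their values there are not separate. The gene ppfr-1, a regulatory subunit of protein phosphatase 4, had 11 peaks in 2 introns, the best at rank 387 with signals of 229 and 263. Its peaks at ranks 825 and 5319 overlapped the same region of each replicate, so their values there are not separate. Those at ranks 387 and 2045 shared the same interval.

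The Sno and Ski family gene daf-5, of the TGF-beta pathway of dauer formation, had 10 peaks, 9 of them in a first intron of 14446 bp. Its best peak had rank 729 and signals of 170 and 181, and its weakest had rank 6860 and signals of 40.2 and 11.9. The interval of the best peak overlapped that of its peak at rank 3463. All 9 peaks of T28B11.1 lay in a first intron of 17091 bp, the best at rank 611 with signals of 207 and 182. The FOXO factor gene daf-16, which acts downstream of insulin signalling, had 8 peaks, none in its first intron. The best had rank 644 and signals of 205 and 168, and the other 7 had ranks of 4035 or higher numbers. The forkhead factor gene fkh-7 had 8 peaks, 5 of them in the first intron, the best at rank 727 with signals of 205 and 154. All 8 peaks of ZK470.2 lay in the fourth of its 6 introns, of 8548 bp, the best at rank 2047 with signals of 135 and 62.3. Across the 7 genes the number of peaks per 10 kb of eligible sequence ran from 3.55 to 8.46.

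**Figure D5:**
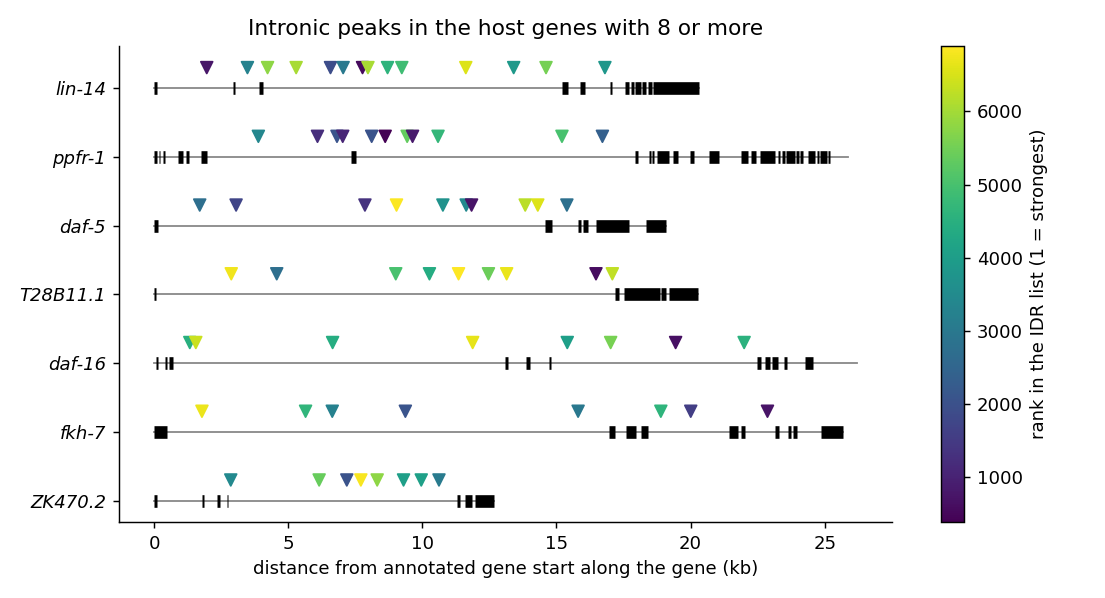
Positions of intronic peaks (triangles, coloured by rank in the IDR list) along the 7 host genes with 8 or more, as distance in kb from the annotated gene start; black blocks are exons of 1 coding transcript per gene. The 14 peaks of lin-14 lie mostly in the third intron, and 9 of the 10 in daf-5 and all 9 in T28B11.1 lie in the first.

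Gene lists were read against the 5.22% of genes that were hosts and against the density of 47.3 per Mb. The lists here and in the next paragraph were chosen with earlier results of these data known. The contrasts are therefore descriptions and not independent support. Transcription factors of families other than homeobox and nuclear receptor genes had 32 hosts among 129 genes with eligible sequence, or 24.8% (18.2 to 32.9), and 213 peaks per Mb (169 to 265), from 81 peaks. Their median eligible sequence was 1257 bp, and the best peak was that in sem-4. Density intervals here and for the lists below treat each peak as separate, although these 81 peaks lay in 32 hosts. They do not cover the spread between genes. Homeobox genes had 14 hosts of 92, with 67.6 peaks per Mb (40.7 to 106) and a median rank of 2471, and 11 of their 19 peaks held 1 box. Nuclear hormone receptor genes had 23 hosts of 273 and 82.0 peaks per Mb (58.6 to 112), with the best in nhr-19 at rank 467 and signals of 293 and 157. Developmental signalling genes had 12 hosts of 63 and 80.5 peaks per Mb (50.5 to 122), with the best in the first intron of mpk-1, the worm ERK kinase, at rank 345 and signals of 282 and 232.

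Genes of the muscle, synapse and axon guidance lists were hosts more often than the average gene, and the intervals of their densities included the overall value. Chemoreceptor genes were hosts less often and had a lower density. The median eligible sequence was 2110 bp for muscle genes, 5212 bp for synapse genes and 5003 bp for axon guidance genes, against 755 bp over all genes. Muscle structure genes had 11 hosts of 44 and 62.4 peaks per Mb (32.3 to 109), with the best in lev-11, which encodes tropomyosin, at rank 588 and signals of 217 and 183. Synapse and ion channel genes had 16 hosts of 65 and 43.2 per Mb (26.7 to 66.1), with the best in the innexin gene unc-9 at rank 1903 and signals of 138 and 69.5. Axon guidance and adhesion genes had 13 hosts of 71 and 49.9 per Mb (32.6 to 73.1), with the best in the netrin receptor gene unc-5 at rank 883 and signals of 168 and 144. Chemoreceptor genes had 5 hosts of 1283 and 6.22 per Mb (2.28 to 13.5), with the best in srh-2 at rank 3573 and signals of 58.5 and 60.3. Cuticle collagen genes had 3 hosts of 129, with the best in col-72 at rank 1797 and signals of 117 and 86.7. Of 69 cytosolic ribosomal protein genes with eligible sequence, only rpl-19 was a host, with 1 peak at rank 359 and signals of 305 and 205. Ribosomal genes had a median of 103 eligible bp, so there was little intron to hit.

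Chromosome III held 57.9 intronic peaks per Mb (51.5 to 64.9), X held 54.9 (48.7 to 61.6) and V held 33.9 (29.3 to 39.0), with the others between 44.1 and 51.1. The X chromosome had the weakest peaks by median rank, 4868, and the lowest GA repeat share, 25.3%. The left-out intronic summits with 2 or more boxes were distributed otherwise, with 134 of 389 on chromosome III and 11 on X.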

How the data were processed

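ChIP-seq peak lists of 2 biological replicates were used, in the ce11 build. Per the deposited file descriptions, the authors called a relaxed list per replicate and one on both replicates together, and derived the IDR list from them. The deposited signal value (column 7) has no stated scale, so it was ranked within each list. No aligner, caller or sequencing depth was stated in these materials. The precision from depth is therefore unknown.

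Summits were placed on Ensembl release 115 gene models and the WBcel235 sequence, with Python 3.11.15, scipy 1.17.1, numpy 2.4.6, matplotlib 3.10.9 and pandas 2.3.3. Intron order and length came from the transcript with the longest coding sequence that had the summit in an intron. Sequences were counted on both strands within 50 bp of summits and of points 300 bp to either side. A shared sequence is one of 20 bp within 100 bp of 2 IDR summits. Replicate regions were matched by an overlap of at least 1 bp. Shares have 95% Wilson intervals and densities exact Poisson intervals, with no p-values, since there was 1 group. The labelling of positions was checked on a made-up gene and on positions drawn evenly from eligible introns. Observed peaks were not compared with simulated ones. Named genes were the hosts of the 15 strongest peaks, the 6 with the most peaks and 1 tied with the sixth, the best of each list and chromosome, and the peaks nearest each limit. The sequences of mab-5 and the tRNA peaks were added after values were seen, and 1 sequence is not reported here. The members and lists were chosen with earlier results of these data known.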

Additional observations from a re-analysis of the deposited data

How the results depend on the processing

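No paired analysis was possible because the samples form 1 group. With one replicate's strongest regions in place of the IDR list, the number of peaks ranged from 1483 to 1534, the first-intron share from 40.1% to 40.2%, the median intron length from 2688 to 2756 bp, the GA repeat share from 32.3% to 32.9%, the share by noncoding starts from 23.8% to 24.7% and the listed hosts from 123 to 135 (130 as reported). With start windows from 1000 bp upstream to 500 bp downstream the first-intron share was 37.6% (19.5% of eligible bases) and the median length 3068 bp, and with windows around every coding transcript's start they were 36.2% (22.6%) and 3162 bp. Counting an intron as first in any transcript gave 54.0%, against 32.0% of eligible bases. Without the box limit, the first-intron share was 36.1%, the length 2098 bp, the GA share 27.7%, the noncoding share 20.4%, the median rank 3835 and the share strong in both replicates 78.9%. Leaving out exons of every transcript gave a noncoding share of 14.6%, and noncoding windows from 200 bp upstream to 100 bp downstream gave 18.9%. The stronger part of the list, ranks up to 3466, held 557 peaks and 62 listed hosts, with a length of 2494 bp, a noncoding share of 26.9%, a median rank of 1982 and 98.9% strong in both replicates. Without peaks that share a 20-bp sequence, the first-intron share was 44.1%, the length 3103.5 bp, the noncoding share 17.2%, the median rank 4446 and the share strong in both 72.8%. Requiring an overlap of 50% of the peak gave 70.6%. The GA share was 18.9% within 25 bp and 49.9% within 100 bp. The cause of these shifts was not tested beyond what each setting adds or removes. Of 74 alternative values, 47 moved by less than their interval or 1.5 times.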
